A study of Homo sapiens with 8 samples.

Results

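The miR-26 family was followed in small RNA libraries of HEK293, an established human line of embryonic kidney origin. Its members were the entries of the deposited microRNA table named hsa-miR-26a or hsa-miR-26b, with or without a copy number and an arm, and 2 of the 2867 entries met that rule: hsa-miR-26a-5p and hsa-miR-26b-5p. The 4 ASO libraries came from cells given 100 nM of an antisense oligonucleotide (ASO) by transfection. Such oligonucleotides are synthetic strands designed to pair with 1 cellular RNA. The 4 control libraries came from cells that received none. All cells were harvested after 48 h. Library names point to miR-31 as its target, and the question of the study was whether small RNAs other than the target changed. No group received an unrelated ASO, and the labels do not say whether the controls were mock-transfected, so an effect of the miR-31 ASO and an effect of any transfected ASO cannot be told apart. The labels do not state that replicates were grown as separate cultures. The p-values below therefore gauge library-to-library spread alone, and that spread may be technical.

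MicroRNAs are short RNAs cut from hairpin precursors. Loaded on an Argonaute protein, they repress messenger RNAs that pair with their seed, the bases near the 5′ end. The miR-26 hairpins lie in introns of the CTDSP genes, which encode small phosphatases that act on the C-terminal domain of RNA polymerase II and take part in silencing neuronal genes outside the nervous system. A known target of miR-26 is EZH2, the histone methyltransferase of Polycomb repressive complex 2. MYC represses miR-26, and miR-26a is low in many liver tumours.

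The mature strands are printed from RefSeq (GRCh38.p14), 5′ to 3′, with the seed (bases 2 to 8) in capitals, to show that they differ only outside the seed.
hsa-miR-26a-5p: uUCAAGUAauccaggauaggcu
hsa-miR-26b-5p: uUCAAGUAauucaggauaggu
Counted from 1 at the 5′ end of miR-26a-5p, miR-26b-5p carries the differences C11U and C21U, and its RefSeq sequence of 21 bases is 1 base shorter. The deposited table gives a length of 22 for both. RefSeq holds 4 human mature microRNAs with this seed, and the other 2, miR-1297 and miR-4465, were not analysed here. The 3p strands of the miR-26 hairpins were not analysed here either.

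The 3 hairpins are shown because miR-26a-5p can come from 2 of them, with the 5p strand in capitals (RefSeq, GRCh38.p14).
MIR26A1: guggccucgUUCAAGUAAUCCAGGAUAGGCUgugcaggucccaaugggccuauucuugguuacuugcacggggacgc
MIR26A2: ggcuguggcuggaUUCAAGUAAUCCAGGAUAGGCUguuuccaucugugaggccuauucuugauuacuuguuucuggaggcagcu
MIR26B: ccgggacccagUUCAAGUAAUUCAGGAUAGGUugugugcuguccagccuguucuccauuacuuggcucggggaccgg
MIR26A1 lies at chr3:37969404-37969480 on the plus strand, in intron 5 of the 7 introns of CTDSPL. MIR26A2 lies at chr12:57824609-57824692 on the minus strand, in intron 5 of the 7 introns of CTDSP2. MIR26B lies at chr2:218402646-218402722 on the plus strand, in intron 4 of the 6 introns of CTDSP1. No annotated transcript of these host genes (GENCODE release 29) has an exon over a hairpin. Since both MIR26A hairpins carry the same 5p strand, a count of miR-26a-5p does not say which of them the molecule came from. In global alignments the hairpins were 69.8% (MIR26A1 and MIR26A2), 69.1% (MIR26A1 and MIR26B) and 64.3% (MIR26A2 and MIR26B) identical.

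Bases shared with the MIR31 hairpin were counted as a measure of how alike the hairpins are. The longest run shared with the MIR31 hairpin was 5 bases in MIR26A1, 5 in MIR26B and 7 in MIR26A2. Runs of at least 5 bases were shared by 98.3% of the 1559 other RefSeq hairpins and runs of at least 7 by 30.1%. The sequence of the ASO is not given in the sources used here, so which bases it covers was not examined.

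Messenger RNAs were not measured in these libraries. As an example of what the seed pairs with, the 3′ UTR site of EZH2 is printed as DNA, with the letters that match bases 2 to 8 of miR-26, followed by an A, in capitals (GENCODE release 29, GRCh38).
EZH2, chr7:148807385-148807407, minus strand: tgaataaagaaTACTTGAActtg
TACTTGAA was searched on the transcript strand of 1 protein-coding transcript per gene, and the 3′ UTRs of 831 of 19144 genes held it (4.34%). These UTRs differ in length, with a median of 806 bases. It occurred 1 time in the EZH2 UTR of 261 bases. Neither these letters nor the shorter TACTTGA, which is contained in them and was found in 9.87% of genes, occurred in the 3′ UTRs searched of CTDSP1, CTDSP2 and CTDSPL.

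Total counts ran from 10082129 to 11677123 in ASO libraries and from 8168828 to 11228954 in controls. Levels below are in CPM, counts divided by a library size and put on a common scale, with library sizes corrected for differences in composition by TMM. Over 168 known microRNAs with a mean of at least 100 CPM, control library 1 stood apart from the rest, with a median distance of 0.26 on the log2 scale from its group's median, against 0.066 to 0.092 in ASO libraries and 0.056 to 0.12 in the other controls. Values for the members and lists are also given without it. The target, miR-31-5p, had 637 to 1018 CPM in ASO libraries and 350 to 1056 CPM in controls, so it did not separate the groups and gave no check of the labels. The table holds microRNAs only, so the identity of the cells could not be checked against protein-coding markers. Of 11 microRNAs that mark liver, muscle, blood cells or neurons, 6 were listed, and their summed level was 31.9 to 47.5 CPM in ASO libraries and 16.0 to 20.6 CPM in controls. Most of it was liver miR-122-5p, which DESeq2 called higher with ASO, as it did 2.13% of entries given an adjusted p. In edgeR's quasi-likelihood test its log2 fold change of 1.30 narrowly missed the threshold of 0.05 (adjusted p = 0.0516). All its ASO libraries lay above all controls, as they did for 3.09% of entries. Muscle miR-1-3p had 5.46 to 7.54 CPM in ASO libraries and 4.58 to 6.59 CPM in controls, and the other 4 were under 2 CPM in every library. Of these, muscle miR-133a-3p was above 0 in 3 ASO libraries and 3 controls, lymphocyte miR-150-5p in 1 of each, and muscle miR-206 and blood miR-142-3p in no ASO library and 1 control each. This sum moved with the groups, by far fewer CPM than the miR-26 levels below, and its part in those results was not tested.

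miR-26a-5p was among the most abundant microRNAs of these cells and hardly varied. It had 44327, 41340.2, 45252 and 44096 CPM in ASO libraries 1 to 4, against 39286, 42332, 40039 and 40494 CPM in control libraries 1 to 4. In ASO libraries 1, 3 and 4 it stood above every control, while ASO library 2 stood below control library 2, so the groups overlapped. The mean level was 43754 ± 1685 CPM under ASO, against 40538 ± 1295 CPM in controls (SD, n = 4 each), and the fitted fold was 1.08. The log2 fold change of 0.11 (SE 0.046, 95% interval 0.0033 to 0.22) did not pass edgeR's quasi-likelihood test over all entries (adjusted p = 0.445). It was 0.11 without control library 1, 0.13 without ASO library 3 and 0.084 without both. In RNA pooled from many cells, more molecules per cell and a larger share of cells with the microRNA cannot be told apart.

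miR-26b-5p was several times less abundant and varied more. It had 5859, 6079, 9468 and 5124 CPM in ASO libraries 1 to 4, against 3412, 4596, 4901 and 5391 CPM in control libraries 1 to 4. The highest value was that of ASO library 3 and the lowest that of control library 1. ASO library 4 lay below control library 4, so these groups overlapped too. The mean level was 6632 ± 1934 CPM under ASO, against 4575 ± 842 CPM in controls (SD, n = 4 each), with a fitted fold of 1.45 (95% interval 1.02 to 2.07). The log2 fold change of 0.54 (SE 0.22) did not pass edgeR's quasi-likelihood test (adjusted p = 0.445). It was 0.35 without ASO library 3, 0.43 without control library 1 and 0.20 without both.

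**Figure D1:**
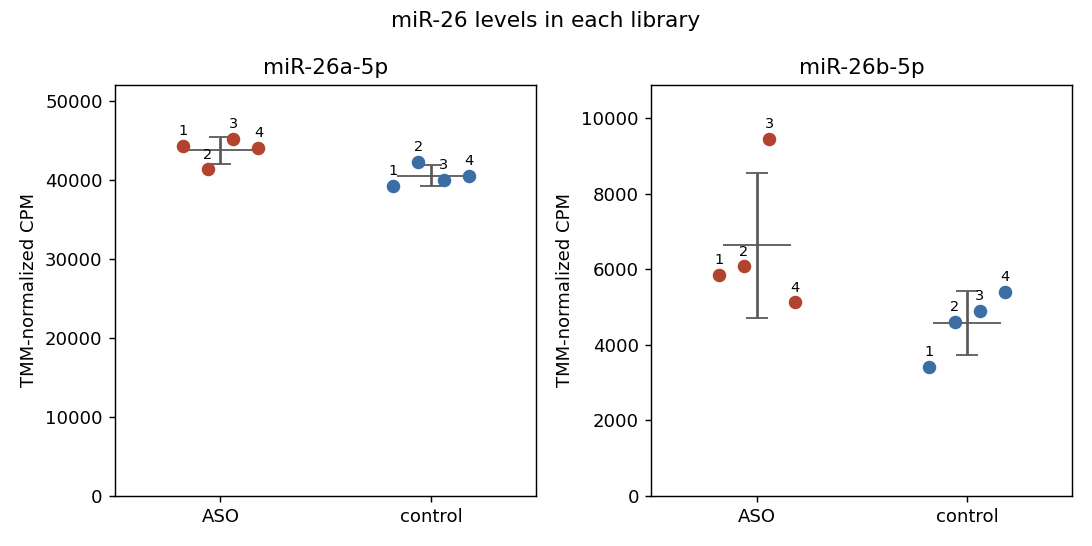
TMM-normalized CPM of miR-26a-5p (left) and miR-26b-5p (right) in each library, ASO left of control, with axes from 0; numbers are library numbers, horizontal lines are means and bars are SD (n = 4 each). miR-26a-5p lies between 39286 and 45252 CPM in all 8 libraries, while miR-26b-5p runs from 3412 CPM in control library 1 to 9468 CPM in ASO library 3.

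Of the 2 members 0 passed edgeR's threshold of an adjusted p of 0.05, against 0.134% of the 745 entries tested (1 entry, miR-503-5p, which was lower with ASO). In the same fit both members were under an unadjusted p of 0.05, as were 10.5% of entries. DESeq2 called 5.45% of the 422 entries to which it gave an adjusted p (2.13% higher with ASO) and neither member (adjusted p = 0.126 for miR-26a-5p and 0.128 for miR-26b-5p). By size of the fitted change in either direction, miR-26a-5p came 576th and miR-26b-5p 161st of the 745 entries. This order takes no account of the SE. In edgeR's test 70 entries had a smaller p than miR-26a-5p and 65 a smaller p than miR-26b-5p.

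**Figure D2:**
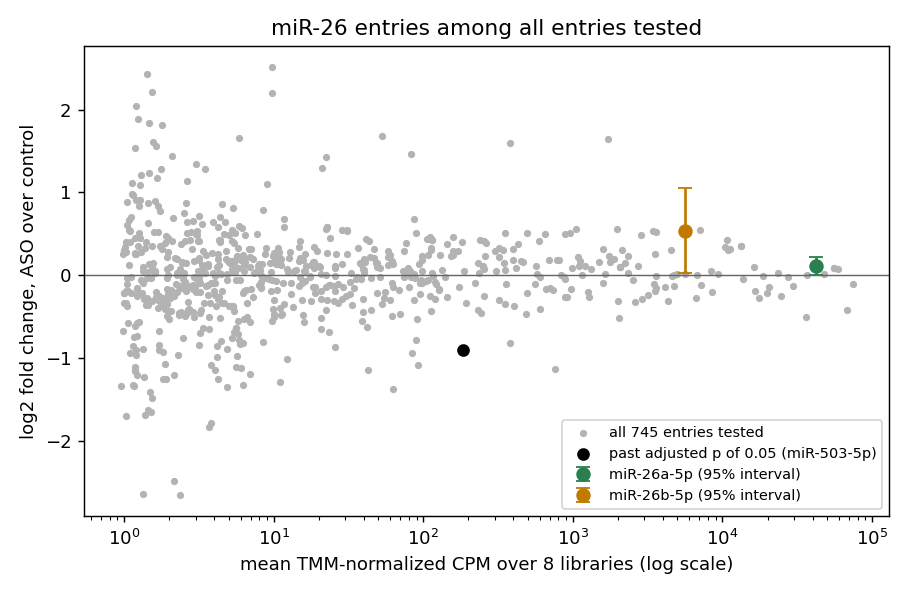
Log2 fold change of ASO over control (vertical) against the mean level over 8 libraries in TMM-normalized CPM (horizontal, log scale) for the 745 entries tested (grey), with miR-503-5p in black and the miR-26 entries in colour with their 95% intervals. miR-26a-5p at 0.11 and miR-26b-5p at 0.54 lie above 0 and within the cloud of other entries.

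Scaling decided whether the miR-26a-5p groups overlapped. Scaled by library total alone, miR-26a-5p took 41912 to 45181 CPM with ASO and 37719 to 41187 CPM in controls, and every ASO library lay above every control, which held for 2.82% of the entries tested. With TMM scaling 3.09% of entries had every ASO library above every control, and miR-26a-5p was not among them. The fitted change kept its sign for both members under each scaling tried (0.095 to 0.13 for miR-26a-5p and 0.47 to 0.56 for miR-26b-5p, on the log2 scale).

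**Figure D3:**
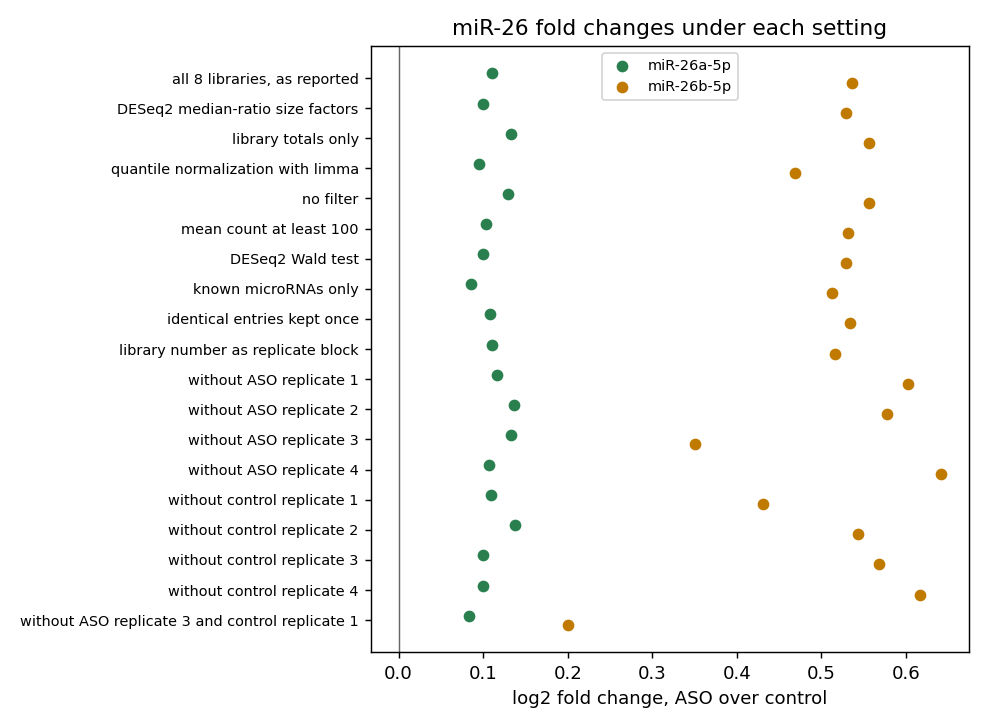
Log2 fold change of ASO over control (horizontal) of miR-26a-5p and miR-26b-5p under each scaling, filter, tool or set of libraries (vertical). All points lie above 0; miR-26a-5p runs from 0.084 to 0.14 and miR-26b-5p from 0.20 to 0.64, lowest without ASO library 3 and control library 1.

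The spread of each strand can be set against its counting error and against other known entries within 2-fold of its level, copies of 1 microRNA included. For miR-26a-5p the coefficient of variation was 3.85% in ASO libraries and 3.20% in controls, where counting alone would give 0.146% and 0.159%. Its SD on the log2 scale was 0.056 with ASO, below that of all 12 entries of like level, and 0.046 in controls, above that of 3 of the 12. For miR-26b-5p the coefficient of variation was 29.2% in ASO libraries and 18.4% in controls, where counting alone would give 0.373% and 0.473%. Its SD was 0.38 with ASO, above that of all 29 entries of like level, and 0.28 in controls, above that of 21 of the 29. The lowest count behind any of these values, 34383 for miR-26b-5p in control library 1, gave a Wilson 95% interval of 3241 to 3310 CPM before TMM scaling.

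Within each library the strands can be compared as a ratio, which no scaling affects. There were 7.57, 6.80, 4.78 and 8.61 counts of miR-26a-5p per count of miR-26b-5p in ASO libraries 1 to 4, against 11.5, 9.21, 8.17 and 7.51 in control libraries 1 to 4. ASO library 3 was lowest and control library 1 highest, and the groups overlapped, since ASO library 4 lay above control libraries 3 and 4 and ASO library 1 above control library 4. The mean ratio was 6.94 ± 1.62 with ASO and 9.10 ± 1.75 in controls (SD, n = 4 each). The difference in mean log2 ratio, −0.41, did not stand out from the spread between libraries (exact permutation test, two-sided, p = 0.143, with 0.0286 the smallest p that the 70 arrangements allow). It was −0.24 without ASO library 3, −0.29 without control library 1 and −0.12 without both. A difference between the responses of the strands to the ASO was thus not shown. Ligation and PCR favour some small RNAs over others, so the ratio itself is one of counts and need not be one of molecules in the cell.

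Together the strands made up 4.82%, 4.81%, 5.46% and 5.03% of all counts in ASO libraries 1 to 4, against 4.10%, 4.57%, 4.56% and 4.63% in control libraries 1 to 4. Every ASO library lay above every control. In TMM-normalized CPM the sum was 50386 ± 3108 under ASO, against 45113 ± 1803 in controls (SD, n = 4 each), and the ASO libraries again lay above the controls, as they did for 3.09% of single entries. The difference in mean log2 sum was 0.16, a fold of 1.12. It was 0.12 without ASO library 3, 0.13 without control library 1 and 0.092 without both. As a score over members that were chosen with earlier results of these data known, it is given without a test. The same choice of members limits the p-values of the ratio above and of the correlation below. miR-26b-5p made up 10.4% to 17.3% of this sum in ASO libraries and 7.99% to 11.7% in controls.

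**Figure D4:**
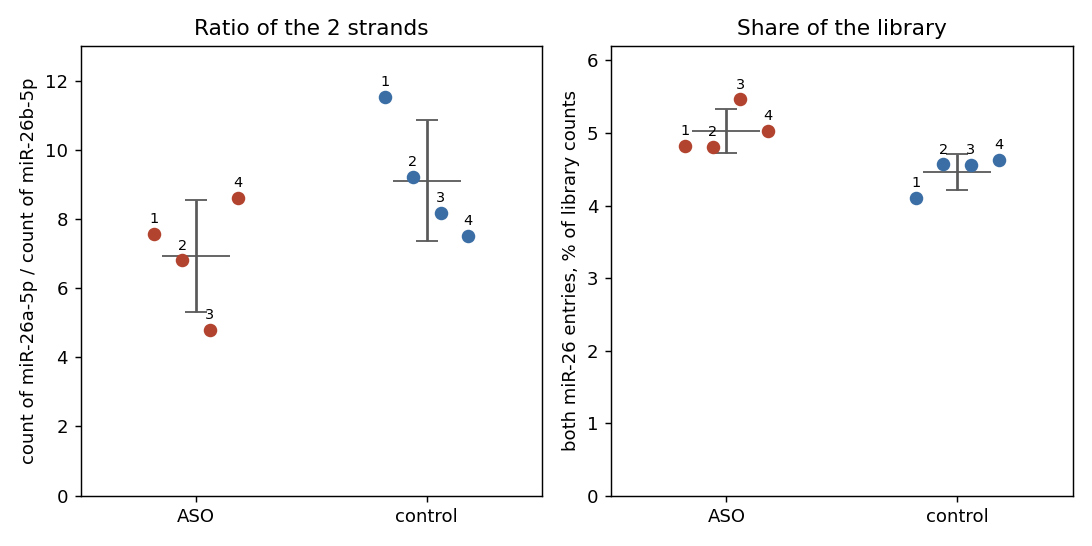
Left, counts of miR-26a-5p per count of miR-26b-5p in each library; right, both entries as a percentage of the library's counts; ASO left of control, lines are means and bars SD (n = 4 each), numbers are library numbers. The ratios overlap between groups (4.78 to 8.61 with ASO, 7.51 to 11.5 in controls), while the summed share runs from 4.81% to 5.46% with ASO and from 4.10% to 4.63% in controls.

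Among the 903 entries of known microRNAs miR-26a-5p ranked 7th by count in each ASO library and 7th or 8th in each control. Entries are not all distinct microRNAs: by mean level, 3 entries of miR-92a stood above it, of which 2 had identical counts. By mean level over the 8 libraries it came after miR-92a-3p (46803 to 60603 CPM) and let-7a-5p (46177 to 50762 CPM), and before let-7f-5p (35570.4 to 39299 CPM) and miR-148a-3p (25351 to 63687 CPM). The range of miR-26a-5p lay below those of miR-92a-3p and let-7a-5p and overlapped those of let-7f-5p and miR-148a-3p, with let-7f-5p by a few CPM. miR-26b-5p ranked 28th to 36th in ASO libraries and 35th to 46th in controls. Its neighbours by mean level were miR-378a-3p (5069.9 to 9215 CPM), miR-148b-3p (4767 to 6490.4 CPM), miR-218-5p (4727 to 5432 CPM) and miR-30e-5p (4275 to 5304 CPM), and its own range overlapped all of them.

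Over the 8 libraries miR-26a-5p and miR-26b-5p were positively correlated on the log2 scale, with Pearson's r = 0.72 (exact permutation p = 0.0301) and Spearman's rho = 0.67 (exact permutation p = 0.0831). This was the 1 relation tested across libraries, so no adjustment was made. Control library 1 and ASO library 3 lay farthest from the median of miR-26a-5p. Without them r was 0.16 (exact permutation p = 0.744, n = 6). Leaving out the extremes of miR-26a-5p narrows its range, which can lower r by itself. The drop therefore does not show that the correlation rested on these libraries. With each library expressed as its deviation from its group's mean, r was 0.43 (exact permutation p = 0.282, n = 8). Scaled by library total alone, r was 0.81 (exact permutation p = 0.0224) and rho 0.74 (exact permutation p = 0.0458).

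Among 537 other tested known microRNAs, those whose log2 levels followed miR-26a-5p most closely over the 8 libraries were miR-323b-3p (r = 0.89), miR-22-3p (0.85), miR-323a-3p (0.84), miR-27a-3p (0.84) and miR-155-5p (0.83). Those that ran most opposite to it were miR-1295a (−0.92) and miR-3120-3p (−0.91). For miR-26b-5p the closest were miR-374a-5p (r = 0.98), miR-152-3p (0.95), miR-186-5p (0.93), miR-942-5p (0.93) and miR-708-5p (0.92), and the most opposite were miR-504-5p (−0.98) and miR-7706 (−0.97). No microRNA was in both sets. These coefficients were picked as the extremes of many and the points share a library and its composition, so they are given as a description. In edgeR's quasi-likelihood test none of these 14 microRNAs had an adjusted p under 0.05 (range 0.402 to 0.627). Over the 19 settings tried the lowest adjusted p was 0.00593 for miR-155-5p and 0.0493 for miR-7706, and none of the others went below 0.05.

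Of 4 other microRNAs known to be directed against EZH2, miR-101 and miR-138 had entries that were tested, and none passed. miR-101-3p, which also represses EZH2, had a mean level of 805 ± 39.7 CPM under ASO, against 966 ± 91.4 CPM for controls (SD, n = 4 each). All its ASO libraries lay below all controls, as they did for 5.23% of entries, and it did not pass edgeR's quasi-likelihood test (log2 fold change −0.26, SE 0.079, adjusted p = 0.402). Over the 19 settings tried its adjusted p ran from 0.0493, with DESeq2, to 0.833, without ASO library 3 and control library 1, where the log2 fold change was −0.18. It was −0.20 without either one alone. The separate entry miR-101-2-3p had nearly the same counts, so the 2 entries may share reads and are not independent. It had a mean level of 830 ± 49.8 CPM under ASO, against 997 ± 94.5 CPM for controls. miR-138-5p had a mean level of 4.52 ± 1.27 CPM under ASO, against 5.85 ± 1.04 CPM for controls (log2 fold change −0.37, adjusted p = 0.543). miR-214-3p had at most 5 counts in a library and was not tested, and miR-124-3p was not analysed here. Of the 3 entries tested 0 passed edgeR's test in either direction. The miR-101 entries both had an unadjusted p under 0.05, against 10.5% of all entries, and DESeq2 called 1 of them, miR-101-3p, against 5.45% of all entries to which it gave an adjusted p.

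miR-26 belongs to the microRNAs that MYC represses. Of the other 19 names in that list, miR-29c-3p was not analysed here and miR-29b-3p matched its copies miR-29b-1-3p and miR-29b-2-3p. In all, the names matched 19 entries, 18 of them tested. None passed edgeR's threshold in either direction, 5 had an unadjusted p under 0.05 (10.5% of all entries did), and DESeq2 called 2, miR-146a-5p and miR-29a-3p (it called 5.45% of all entries given an adjusted p). Of these, miR-29a-3p is named after its value was seen. With TMM scaling every ASO library lay above every control in 3 of the 18, against 3.09% of all entries. In 0 of the 18 every ASO library lay below every control, against 5.23% of all entries. The 18 are not all independent, since miR-29b-1-3p and miR-29b-2-3p had nearly the same counts. The log2 fold change was above 0 in 17 of the 18, against 51.7% of all 745 entries. It was only 0.0010 in miR-30e-5p, 0.0076 in let-7f-5p, 0.0081 in let-7a-5p and 0.023 in let-7g-5p, and −0.044 in miR-30d-5p. It was above 0 in 14 of the 18 and 373 of the 745 with median-ratio scaling, and in 15 of the 18 and 365 of the 745 with quantile normalization. With TMM scaling the median was 0.27, against 0.012 over all entries. Without control library 1 it was above 0 in 16 of the 18, against 53.2% of all entries, with a median of 0.22, and without ASO library 3 as well in 15, against 51.9%, with a median of 0.16. The most abundant, let-7a-5p, whose family targets RAS and HMGA2 transcripts, had a mean level of 48144 ± 1912 CPM under ASO, against 47874 ± 1084 CPM for controls. The one with the smallest p, miR-146a-5p, which NF-kB induces, had a mean level of 17.2 ± 1.51 CPM under ASO, against 12.9 ± 1.53 CPM for controls (SD, n = 4 each) and did not pass by edgeR's quasi-likelihood test (adjusted p = 0.402). Over the 19 settings tried its adjusted p ran from 0.0420 to 0.833.

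Like miR-26, many conserved microRNAs lie within protein-coding genes. A list of 32 such names matched 30 entries, and miR-33a-5p, miR-33b-5p, miR-106b-5p, miR-335-5p and miR-361-5p were not analysed here. Of the 30 entries 28 were tested, and 0 passed edgeR's threshold in either direction. At an unadjusted p under 0.05 there were 2 (10.5% of all entries), and DESeq2 called 0 (5.45% of all entries given an adjusted p). Copies with similar counts, those of miR-103a-3p and of miR-128-3p, are among the 28 and are not independent. The entry miR-103a-3p without a copy number was not tested, and its counts ran from 0 to 166935 between libraries. The log2 fold change was above 0 in 20 of the 28, against 51.7% of all entries, and the median was 0.077, against 0.012 over all entries. It was above 0 in 15 of the 28 and 365 of the 745 with quantile normalization, and in 24 of the 28 and 407 of the 745 with library totals alone. Without control library 1 the count was again 20, against 53.2% of all entries, with a median of 0.037, and without ASO library 3 it was 23, against 56.1% of all entries, with a median of 0.11. The most abundant, miR-25-3p of the MCM7 intron, had a mean level of 27277 ± 2210 CPM under ASO, against 27688 ± 378 CPM for controls. miR-186-5p of the ZRANB2 gene had the smallest p. It had a mean level of 4077 ± 541 CPM under ASO, against 2811 ± 680 CPM for controls (SD, n = 4 each). Every ASO library lay above every control, as in 2 of the 28 entries and 3.09% of all entries. In 0 of the 28 every ASO library lay below every control, against 5.23% of all entries. Its log2 fold change was 0.54, with an adjusted p of 0.412 in edgeR's quasi-likelihood test. The change was 0.41 without control library 1, 0.48 without ASO library 3 and 0.31 without both.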

How the data were processed

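Small RNA libraries were prepared with an NEB kit from total RNA isolated with a Qiagen kit, per the labels' protocols. The submitters' processing notes name bcl2fastq 2.20, Trimmomatic 0.30, GRCh38 and edgeR 3.4.6; which aligner and counter were used is not given in the sources used here. The authors deposited 1 table with raw counts per entry and library. It also holds columns the authors headed TPM, which are CPM: they differ from CPM computed here by at most 0.223. Titles gave the groups.

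Testing kept entries with counts in 4 or more of 8 libraries and an average of 10 or more (745 of 2867), using edgeR 4.0.16's quasi-likelihood test (TMM, trended dispersion, no block, Benjamini-Hochberg over all entries, threshold 0.05), after a check on simulated data. Intervals of folds used an SE equal to the log2 change over √F. Limma 3.58.1 and DESeq2 1.42.0 gave alternatives. A pseudocount of 1 CPM was used for correlations and SDs on the log2 scale. Permutation tests were exact (SciPy 1.17.1). 1 count is 0.0856 to 0.122 CPM; Wilson intervals cover counting error only, because reads copied by PCR do not count molecules. Replicates differed beyond sampling noise (chi-square over its degrees of freedom, 135 to 801). No batch is labelled.

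Members and lists were chosen with earlier results of these data known. Lists overlap in single names (miR-150-5p, miR-30e-5p, miR-124-3p). A list name matched entries with or without a copy number. Named were both members, entries sharing their seed, EZH2-directed microRNAs, the most abundant and lowest-p member of each other list, neighbours in level, and the 5 most and 2 least correlated microRNAs, with miR-31-5p and any entry past the threshold. The planned test of the summed level was replaced by a description.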

Additional observations from a re-analysis of the deposited data

How the results depend on the processing

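Neither miR-26 entry passed the threshold, and neither changed sign, under any of 18 alternatives each. Adjusted p ran from 0.126 to 0.882 for miR-26a-5p and from 0.128 to 0.882 for miR-26b-5p. Leaving out 1 library at a time gave log2 fold changes of 0.0997 to 0.138 for miR-26a-5p and 0.351 to 0.642 for miR-26b-5p, differences of 0.118 to 0.187 for the log2 sum, and of −0.520 to −0.237 for the log2 ratio. Leaving out ASO library 3 and control library 1 together, and recounting the lists without either, was chosen after seeing the data.

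The count of entries past the threshold, 1 as reported, was 0 with no filter, 5 with a mean count of at least 100, 23 with DESeq2's Wald test, 4 with known microRNAs only, 4 with identical entries kept once and 0 in the fit blocked on library number. With 1 library left out it was 0 (without control library 2) to 5 (without control library 4); it was 2 without control library 1, without control library 3 and without ASO library 1, and it was 3 without ASO library 4. The cause was not tested. It stayed at 1 with the other scalings. In the fit with the replicate block the log2 fold changes were 0.11 for miR-26a-5p (adjusted p = 0.514) and 0.52 for miR-26b-5p (adjusted p = 0.509). Deviations of same-numbered libraries correlated by −0.039 to 0.30, and those of other-numbered libraries by −0.26 to 0.18. The highest value was that of ASO library 3 with control library 3. The numbers were not taken to pair libraries because the labels do not state it.

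The correlation of the strands missed the threshold without the libraries farthest from the median (r = 0.16) and for deviations from the group mean (r = 0.43), and passed it with library totals only (r = 0.81; Spearman's rho, 0.67 as reported, was then 0.74, with a p under 0.05). The ratio of 3p to 5p strands was not run. Summing 5p entries alone changed nothing, since both members are 5p strands. At counts of 34383 and more, counting error is small by construction; copies made by PCR are not molecules, so the number of molecules behind these values is unknown.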

Other observations

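In neither group did a single library's miR-26 value lie far enough from the other 3 to pass Dixon's 95% critical value of 0.829 for the gap over the range. The nearest was miR-26b-5p in ASO library 3, whose gap was 0.780 of the group's range. Of the 903 known entries, 796 matched a RefSeq mature name, both miR-26 entries among them.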
